A study of Mus musculus with 18 samples.

Results

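Ion channel, receptor and synaptic genes were followed in Ctrl and Zeb2 KO mouse embryonic stem cells (ESCs) through neural differentiation (ND). The genes are all protein-coding genes of the table of TPM (read counts divided by gene length and scaled to a common total for each library) whose symbols begin with Kcn (K+ channels), Cacn (Ca2+ channels), Scn and a digit (Na+ channels), Gabr (GABA-A receptors), Gria, Grik or Grin (ionotropic glutamate receptors), Syt (synaptotagmins), Stx (syntaxins), Nrxn or Nlgn (neurexins and neuroligins), or are Syn1, Syn2, Syn3 or Snap25. This rule uses names alone and selected 46 of 10965 genes. Ctrl cells carry Zeb2 alleles flanked by loxP sites, and KO cells are labelled Zeb2 -/-, with both labelled as CD1. Cells were collected as ground-state ESCs in 2i + LIF medium (d0), as embryoid bodies (EBs) after 4 days in medium with serum (d4), and as EBs after 2 further days in N2B27 with retinoic acid (d6), with 3 libraries labelled as biological replicates for each genotype and day. The methods describe several control and KO lines, and which of them were sequenced is not stated, so that differences between lines and between genotypes cannot be told apart.

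Ion channels set the membrane potential and its changes. K+ channels carry the current that returns a cell to rest, voltage-gated Na+ and Ca2+ channels open on depolarization, and Ca2+ entry through the latter triggers the release of transmitter. Release is carried out by SNARE proteins, among them the syntaxins of the target membrane, with synaptotagmins as Ca2+ sensors, and neurexins and neuroligins join the membranes on either side of a synapse. Many of these families also have members outside neurons, such as the two-pore K+ channels that carry resting currents and the syntaxins of endosomes and the Golgi.

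The libraries held between 9622622 and 15617675 reads on the 10965 genes, as recovered from the TPM, and between 7245 and 23430 of these lay on the 46 genes. The deposited TPM of each gene include 1 added read, which read numbers given here leave out. Zeb2 itself was at 0.129 ± 0.00754, 1.36 ± 0.121 and 7.66 ± 0.138 TPM in Ctrl at d0, d4 and d6 (SD, n = 3) and at 0.0216 ± 0.00526, 0.164 ± 0.0388 and 0.681 ± 0.0763 TPM in KO. Markers of other states moved with genotype and day. The 10 neural progenitor markers in the table, of 12 listed, added up to 504 to 640 TPM per library in Ctrl and 102 to 137 TPM in KO at d6, and the 13 neuronal markers, of 15 listed, to 390 to 434 and 201 to 236 TPM. Of the 13 neuronal markers, 7 were lower and 3 higher in KO at d6. The 11 pluripotency markers, of 11 listed, added up to 1418 to 1593 TPM in Ctrl against 4893 to 5342 TPM in KO at d6, with 9 higher and 1 lower. At d0 the neural progenitor list ranged from 35.3 to 43.2 TPM in Ctrl against 33.8 to 34.5 in KO, and the pluripotency list from 7590 to 8006 and 7113 to 8058 TPM. The neuronal list was at 322 to 357 TPM in Ctrl against 191 to 217 TPM in KO at d0, with 5 of its 13 genes lower and 0 higher, and at 355 to 371 against 396 to 428 TPM at d4, with 3 lower and 6 higher. The 8 endoderm markers in the table, of 9 listed, added up to 178 to 303 TPM in Ctrl against 39.9 to 66.8 TPM in KO at d6, and the 4 mesoderm markers, of 9 listed, to 148 to 203 and 16.9 to 22.3 TPM. Of these 4 mesoderm markers, 3 were lower and 1 higher in KO. No listed marker of the table was at 0 in every library. The part of these cell states in the results was not tested, and in bulk RNA fewer cells of a type and less RNA per cell cannot be told apart.

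Zeb2 is a zinc finger repressor that binds E-boxes of the sequence CACCTG and the shorter CACCT within it. The promoters of Cacng7, Kcng3, Stx3 and Kcnk1, genes whose levels the results turn on, are shown because they hold different numbers of these letters. Each is the RefSeq sequence of the 250 bases before the transcription start (build GRCm38.p6), 5′ to 3′ along the gene, with CACCT or its complement AGGTG in capitals, extended to CACCTG or CAGGTG where the sixth base is present. None of these windows overlaps an annotated exon.
Cacng7, chr7:3332575-3332824, plus strand: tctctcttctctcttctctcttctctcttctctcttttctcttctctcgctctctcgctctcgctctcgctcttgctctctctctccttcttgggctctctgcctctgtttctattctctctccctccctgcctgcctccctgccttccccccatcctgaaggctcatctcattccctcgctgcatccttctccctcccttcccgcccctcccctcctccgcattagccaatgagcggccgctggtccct
Kcng3, chr17:83631896-83632145, minus strand: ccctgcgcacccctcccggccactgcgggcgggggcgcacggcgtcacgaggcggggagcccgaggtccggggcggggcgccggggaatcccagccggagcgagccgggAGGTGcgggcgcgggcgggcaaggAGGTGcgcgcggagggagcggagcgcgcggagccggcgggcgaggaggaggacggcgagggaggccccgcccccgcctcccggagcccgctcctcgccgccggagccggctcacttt
Stx3, chr19:11819404-11819653, minus strand: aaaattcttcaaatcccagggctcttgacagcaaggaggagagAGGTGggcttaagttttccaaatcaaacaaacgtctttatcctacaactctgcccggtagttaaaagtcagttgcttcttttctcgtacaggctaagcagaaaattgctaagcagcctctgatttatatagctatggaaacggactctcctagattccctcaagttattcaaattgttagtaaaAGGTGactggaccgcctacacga
Kcnk1, chr8:125994852-125995101, plus strand: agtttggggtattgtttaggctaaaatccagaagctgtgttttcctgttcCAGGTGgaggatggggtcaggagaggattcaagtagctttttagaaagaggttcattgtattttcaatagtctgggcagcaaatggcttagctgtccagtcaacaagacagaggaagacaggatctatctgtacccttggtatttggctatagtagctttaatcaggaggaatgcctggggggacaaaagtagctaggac
Kcnk1 holds 1 CACCTG, Kcng3 and Stx3 hold 2 CACCT each without the sixth base, and Cacng7 holds none. Windows of this kind were found for 31 of the 46 genes, 39 windows in all. CACCTG, searched on both strands, occurred in 4 of the 39, those of Grik3, Kcnj12, Kcnk1 and Stx2 (10.3%), and in 17.2% of all 32841 promoter windows of the same length. CACCT, which includes the matches of CACCTG, occurred in 16 (41%) and in 46% of all windows. A match describes letters in the window and is no evidence of binding. Genes without a window included Cacna1g, Cacna1h, Cacng4, Kcng1, Kcnh3, Kcnk6, Nrxn2, Syt5, Syt7, Syt13 and Syt17.

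The families were unevenly represented. Of 211 annotated mouse protein-coding genes whose names fit the rule, 46 were among the genes of the table, which had to reach 5 TPM in at least 3 libraries and not be among the least variable. Syntaxins, 5 of which belong to the plasma membrane and 5 to internal membranes, made up 10 of 15 annotated. The Cacn genes made up 10 of 26, the synaptotagmins 6 of 17 and the Kcn genes 15 of 94. Among the pore-forming Cacna1 subunits 3 of 10 were in the table, and among the Na+ channel genes 1 of 14. The glutamate receptors were represented by the kainate receptor subunits Grik3 and Grik5, with no AMPA or NMDA receptor subunit. The 19 GABA-A receptor genes, the 3 synapsins and Snap25 were not among the genes of the table. Of the neurexins Nrxn2 and of the neuroligins Nlgn2 were present. In 18 of the 46 genes some library of every group reached 5 TPM, whereas 7 reached it in a single group and so entered the table through that group: Cacna1b and Kcng3 through KO d6, and Cacna1g, Cacna2d2, Cacng4, Kcng1 and Nrxn2 through Ctrl d6. A difference between that group and the others, the other genotype at d6 included, is partly built into those 7. Counted by genotype, 8 genes reached 5 TPM in 1 genotype alone. Beside those 7 this was Kcnn4, which reached it in KO libraries of d4 and d6, so that a larger rise in KO is partly built into it. The counts below describe the 46 genes of the table, not all genes of these families.

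The tests between groups used limma and log2(TPM + 1), a scale on which changes of scarce transcripts appear smaller than they are, and calls were made below 0.01 for p-values adjusted by Benjamini and Hochberg across all 10965 genes. Values with ± are SD over 3 libraries for TPM and standard errors for log2 fold changes. In Ctrl, between d0 and d6, 35 of the 46 genes rose, where 45.8% of all genes did, and 5 fell, where 25.8% of all genes did. Their median change was 1.00 on the log2 scale, against 0.26 over all genes. After quantile normalization the numbers in Ctrl were 23 and 10, and the shares of all genes after it were not counted. In Zeb2 KO cells 36 rose and 5 fell, against 40.3% and 27.4% of all genes, with a median change of 1.67 against 0.17 over all genes. In all, 31 genes rose and 4 (Kcnh3, Kcnk5, Kcnrg and Kcns3) fell in both genotypes. The share of all genes that rose or fell in both was not counted. From d0 to d4, 28 genes rose and 5 fell in Ctrl (45.1% and 22.3% of all genes), and 35 rose and 3 fell in KO (35.8% and 20.9% of all genes). From d4 to d6, 19 rose and 6 fell in Ctrl (22.6% and 21.5% of all genes), and 27 rose and 4 fell in KO (21.5% and 19.9% of all genes).

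**Figure D1:**
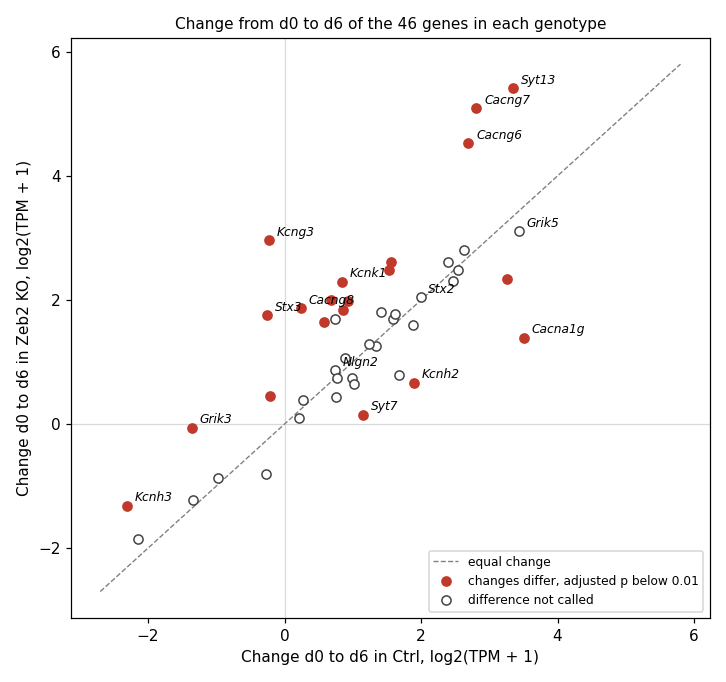
Change of the 46 genes from d0 to d6 on the log2(TPM + 1) scale in Ctrl (x axis) and in Zeb2 KO cells (y axis), with 1 point for each gene and a dashed line where both changes are equal. The 20 filled points are genes whose changes differed at an adjusted p below 0.01, of which 16 lie above the line and 4, among them Cacna1g, Kcnh2 and Syt7, below it.

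The change since d0 was then compared between the genotypes. In a moderated F test over both days, 22 of the 46 genes had a different course in KO and Ctrl, against 48.7% of all genes. At d6 alone, 16 genes had changed more upward in KO than in Ctrl and 4 more downward, where 17.8% and 25.9% of all genes were called. The d0 libraries enter both sides of these differences, so that a lower start in KO adds to a larger rise. On the same scale KO minus Ctrl at d6 had a median of -0.02 over the 46 genes and -0.14 over all genes.

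In ground-state ESCs at d0, 12 of the 46 genes were lower in Zeb2 KO than in Ctrl and 0 were higher, where 16.4% of all genes were lower and 10.6% higher. The 12 were Cacna2d2, Cacng6, Cacng7, Kcng1, Kcng3, Kcnip3, Kcnj4, Kcnk6, Kcnn4, Nlgn2, Stx2 and Syt7. At an unadjusted p below 0.05, limma gave 1 higher gene, Kcnh3, and 23 lower, and voom on the recovered reads called 1 gene higher. The calls of Kcnk6 (adjusted p = 0.00803) and Kcnn4 (adjusted p = 0.00881) lay close to the threshold, and leaving out any 1 of 10 libraries ended the first and any 1 of 13 the second, with adjusted p of up to 0.0425 and 0.0357.

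At d4, after serum and before retinoic acid, 19 genes were lower in KO and 6 higher, where 32.7% and 12.7% of all genes were called. After median-ratio rescaling the numbers were 13 and 9, and after quantile normalization 12 and 12. The median of all genes was -0.16 at d4 and -0.14 at d6, and these scalings brought it to 0.00 at d4 and to 0.01 or 0.02 at d6. At d6, 15 genes were lower and 12 higher in KO, where 34.3% and 17.9% of all genes were called, and the rescalings gave 13 and 18 and 11 and 18. Shares of all genes called after the rescalings were not counted at d4 or d6, so that the rescaled numbers have no comparison. In all, 36 of the 46 genes were called on at least 1 day. The share of all genes called on at least 1 day was not counted, so that this number has no comparison. The genes lower on all 3 days were Cacna2d2, Kcng1, Nlgn2, Stx2 and Syt7, and those higher at both d4 and d6 included Kcng3, Kcnh3, Stx3 and Syt5. The calls of Cacna2d2 were lost after quantile normalization and in fits to the compared groups, with adjusted p of up to 0.0643, 0.314 and 0.0968 at d0, d4 and d6. The calls at d0 and d4 were also lost without Ctrl d0 replicate 1 or KO d0 replicate 2 or 3 at d0, and without Ctrl d4 replicate 2 or 3 or KO d4 replicate 1 or 2 at d4. Cacng6, Cacng7 and Kcng3 were lower at d0 and higher at d6.

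**Figure D2:**
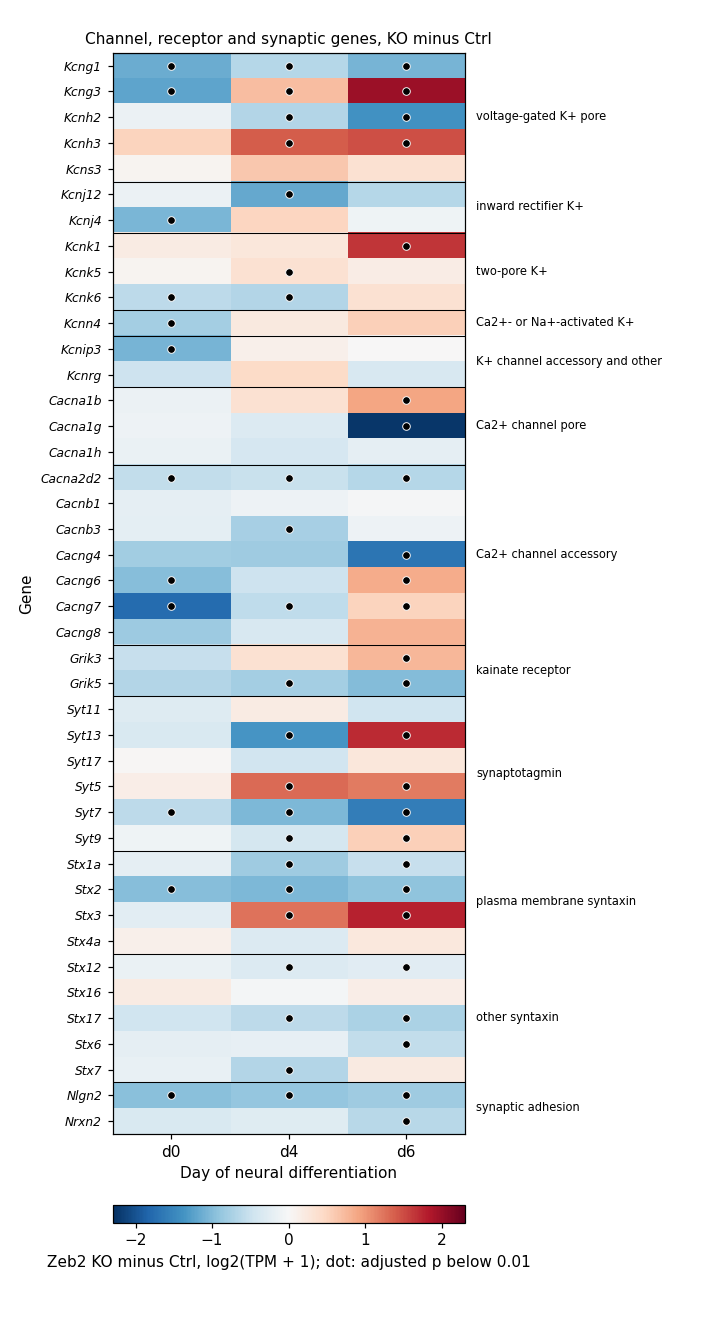
Log2 fold change between Zeb2 KO and Ctrl on the log2(TPM + 1) scale at d0, d4 and d6 (columns) for 42 of the 46 genes (rows), grouped by role, with red for higher in KO and a dot where the adjusted p was below 0.01. The d0 column holds 12 dots, each on a gene lower in KO, and the d6 column holds 14 on genes lower and 11 on genes higher in KO.

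On the log2(TPM + 1) scale the gene with the largest difference at d0 was Cacng7, in a cluster of Ca2+ channel gamma subunits. As a ratio of mean TPM the difference was larger in Kcng3 and Cacna1g, which had few reads in KO at d0. Cacng7 (ENSMUSG00000069806; chromosome 7, 3332955 to 3368221, plus strand), Cacng8 and Cacng6 are neighbours, with 22461 and 8546 bases between them. Gamma-7 and gamma-8 belong to the proteins that also escort AMPA receptors. In Ctrl, Cacng7 was at 19.7, 21 and 21.8 TPM at d0, at 140, 146 and 166 at d4 and at 150, 151 and 156 at d6. In KO it was at 5.13, 5.39 and 5.74 TPM at d0, at 89.1, 96.8 and 116 at d4 and at 202, 220 and 231 at d6. The groups did not overlap on any day, with KO below Ctrl at d0 and d4 and above it at d6. At d0 the mean in Ctrl was 3.85-fold that in KO, a log2 fold change of -1.77 ± 0.09 (adjusted p = 1.43e-09). It was -0.58 ± 0.09 at d4 (adjusted p = 4.48e-05) and 0.51 ± 0.09 at d6 (adjusted p = 9.52e-05). Cacng7 thus rose 7.30-fold in Ctrl and 40.2-fold in KO from d0 to d6, and from d4 to d6 it changed by 0.02 in Ctrl (adjusted p = 0.881) and by 1.11 in KO (adjusted p = 5.01e-08).

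In each library, Cacng6 (chromosome 7, 3424195 to 3435667) had 1.72, 2.57 and 3.66 TPM in Ctrl against 0.601, 0.762 and 1.07 TPM in KO at d0, and at 20.8, 21.5 and 24 TPM in Ctrl against 35.3, 42.9 and 43.6 TPM in KO at d6. Neither day showed overlap, and KO moved from below to above Ctrl. The log2 fold change was -0.98 ± 0.16 at d0 (adjusted p = 0.000142) and 0.85 ± 0.16 at d6 (adjusted p = 0.000218). Cacng8 (chromosome 7, 3390683 to 3415648), the least abundant of the 3, had 1.41 to 2.18 TPM in Ctrl against 0.461 to 0.624 TPM in KO at d0, and 1.52 to 2.8 and 3.73 to 5.26 TPM at d6. It was called on no single day (adjusted p = 0.0139 at d0 and 0.0108 at d6), and its change since d0 was larger in KO by 1.62 (adjusted p = 0.000946). At d0 the values rest on 55 reads in the 3 Ctrl libraries together and 15 in those of KO.

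**Figure D3:**
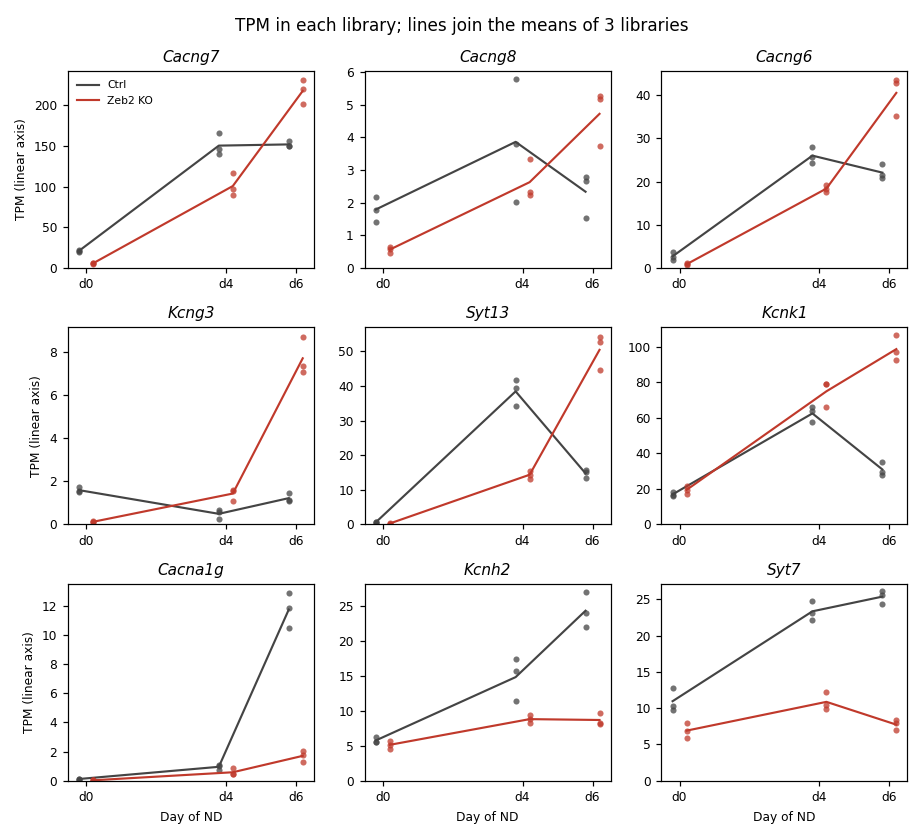
TPM (linear y axes from 0) of 9 genes at d0, d4 and d6 in each Ctrl (grey) and Zeb2 KO (red) library, with lines through the means of 3 libraries. Cacng7, Cacng6 and Kcng3 cross from below to above Ctrl between d0 and d6, Syt13 and Kcnk1 decline in Ctrl after d4 and not in KO, and Cacna1g, Kcnh2 and Syt7 end higher in Ctrl.

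The Ca2+ channel genes outside that cluster differed between the genotypes in both directions at d6. Cacna1g (ENSMUSG00000020866; chromosome 11, 94408391 to 94474198), the pore of a T-type channel that opens at low voltage, was at 10.5, 11.8 and 12.9 TPM in Ctrl at d6 and at 1.31, 1.73 and 2.07 TPM in KO, with no overlap. Its mean in Ctrl was 6.89-fold that in KO, a log2 fold change of -2.24 ± 0.15 (adjusted p = 2.54e-09), the lowest of the 46 genes at d6. Cacna1g entered the table through Ctrl d6 alone, so that this difference is partly built in. At d0 its level rested on 23 reads in the 3 Ctrl libraries together and 3 in those of KO, and the difference was not called (adjusted p = 0.568). From d4 to d6 it rose by 2.71 in Ctrl and by 0.78 in KO on the log2 scale. Cacna1b, the pore of N-type channels of presynaptic terminals, went the other way, with 2.14, 2.66 and 3.03 TPM in Ctrl at d6 against 5.66, 5.7 and 5.77 TPM in KO (0.90 ± 0.14, adjusted p = 2.51e-05). Like the gamma subunits it had its lower mean at d0 in KO (0.101 TPM against 0.215 in Ctrl, adjusted p = 0.438), and its change since d0 was larger in KO by 1.05 (adjusted p = 0.000233). Cacna1h, a second T-type pore, was called on no day between the genotypes and rose by 2.54 in Ctrl against 2.49 in KO from d0 to d6. Among the accessory subunits, Cacng4 was at 9.4, 10.4 and 11.3 TPM in Ctrl against 2.17, 2.52 and 2.92 TPM in KO at d6 (-1.69 ± 0.29, adjusted p = 0.000102). The d6 differences of Cacng4 and Cacna1b are also partly built in, as these genes entered through Ctrl d6 and KO d6 alone. Cacnb3, a beta subunit at a mean of 74.6 TPM over all libraries, was lower in KO at d4 alone (-0.76 ± 0.09, adjusted p = 2.73e-06). Of the 10 Cacn genes, 9 rose in Ctrl and 9 in KO between d0 and d6, where 45.8% and 40.3% of all genes did.

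Of the 15 Kcn genes, 6 were lower in KO at d0 and 0 higher. The numbers were 5 and 4 at d4, and 2 and 4 at d6. Of all genes 16.4% were lower and 10.6% higher at d0, 32.7% and 12.7% at d4, and 34.3% and 17.9% at d6. Kcng3 (ENSMUSG00000045053; chromosome 17, 83585957 to 83631895), a silent subunit that modifies other voltage-gated K+ channels, was at 1.51, 1.52 and 1.71 TPM in Ctrl at d0, at 0.239, 0.549 and 0.659 at d4 and at 1.07, 1.12 and 1.44 at d6. In KO it was at 0.0887, 0.105 and 0.142 TPM at d0, from 1 read over the 3 libraries against 55 in Ctrl. KO was at 1.1, 1.56 and 1.61 TPM at d4 and at 7.05, 7.32 and 8.7 TPM at d6, with no overlap between the genotypes on any day. The log2 fold change was -1.21 ± 0.15 at d0 (adjusted p = 1.03e-05), a size set largely by the pseudocount, 0.71 ± 0.15 at d4 (adjusted p = 0.000673) and 1.98 ± 0.15 at d6 (adjusted p = 9.67e-09), where the mean in KO was 6.36-fold that in Ctrl. The d4 call was lost when the 2 d4 groups were fitted alone (adjusted p = 0.0179). Kcng3 entered the table through KO d6 alone, so that its difference at d6 is partly built in. Kcng1, another silent subunit, was lower in KO throughout, with differences of -1.14, -0.65 and -1.08 on the log2 scale at d0, d4 and d6. At d6 it was at 7.97, 9.38 and 9.47 TPM in Ctrl against 3.16, 3.47 and 4.59 TPM in KO. That d6 difference is partly built in, as Kcng1 entered the table through Ctrl d6 alone. The d4 call of Kcng1 (adjusted p = 0.00232) was lost without Ctrl d4 replicate 3 or KO d4 replicate 1 or 2, when the 2 d4 groups were fitted alone, and after quantile normalization (adjusted p of up to 0.105).

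Both Kcnh genes moved in opposite directions. Kcnh2, the pore of the Erg channel of heart and other tissues, rose in Ctrl, with means of 5.77 ± 0.405, 14.8 ± 3.14 and 24.4 ± 2.58 TPM on the 3 days. In KO it was at 5.14 ± 0.609, 8.83 ± 0.608 and 8.70 ± 0.849 TPM, and its change in KO from d4 to d6 was -0.02 (adjusted p = 0.918). At d6 the difference between KO and Ctrl was -1.39 ± 0.14 (adjusted p = 3.22e-07). Kcnh3, an Elk channel of the forebrain, fell in Ctrl from 9.87, 10.6 and 14.8 TPM at d0 to 1.13, 1.54 and 2.07 TPM at d6, and in KO from 16.3, 17.1 and 17.1 to 4.87, 5.94 and 7.91 TPM. It was higher in KO at d4 (1.39 ± 0.21, adjusted p = 3.73e-05) and at d6 (1.48 ± 0.21, adjusted p = 1.19e-05). Kcns3, a further silent subunit, fell in both genotypes and was called on no day between them (0.62 at d4, adjusted p = 0.0124). It lies on chromosome 12, whose 440 genes had a median difference of 0.36 at d0 between KO and Ctrl. With the medians of chromosomes 6, 8 and 12 removed from each library, Kcns3 was called higher in KO at d4 (0.79, adjusted p = 0.00199). Its course then differed in the F test (adjusted p = 0.00488), and the d6 difference was not called (0.54, adjusted p = 0.0198).

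Kcnk1 (ENSMUSG00000033998; chromosome 8, 125995170 to 126030685), the Twik-1 two-pore channel, was at 16, 16.4 and 18 TPM in Ctrl against 17.1, 19.6 and 21.5 TPM in KO at d0. At d4 it was at 57.7, 63.7 and 66 TPM in Ctrl against 66.2, 79.2 and 79.3 in KO, and at d6 at 27.9, 29.6 and 35.1 TPM in Ctrl against 92.7, 96.9 and 107 in KO. The genotypes overlapped at d0. At d4 they did not overlap, but the difference was not called (0.26, adjusted p = 0.044). At d6 KO was 3.20-fold Ctrl (1.65 ± 0.10, adjusted p = 1.27e-09). From d4 to d6 Kcnk1 fell in Ctrl by 1.00 (adjusted p = 6.84e-07) and rose in KO by 0.40 (adjusted p = 0.0042). It lies on chromosome 8, whose 668 genes had a median difference of 0.33 at d0 and -0.15 at d6 between KO and Ctrl. With the medians of chromosomes 6, 8 and 12 removed from each library the difference at d6 was 1.83 (adjusted p = 5e-10), and at d4 Kcnk1 was then called higher in KO (0.45, adjusted p = 0.00205). An antisense gene, Gm45875, overlaps 179 bases of its exons, and whether the counting used strand is not stated. Kcnk5, the Task-2 channel and the most abundant Kcn gene at a mean of 78.2 TPM, fell to 45.9 ± 2.86 TPM in Ctrl against 51.9 ± 4.18 TPM in KO at d6, with no call between them (adjusted p = 0.0692), and at d4 it was higher in KO by 0.35 (adjusted p = 0.00141). Kcnk6, the Twik-2 channel, rose to 18.2 ± 1.18 TPM in Ctrl against 23.3 ± 1.34 TPM in KO, and its change since d0 was larger in KO by 0.96 (adjusted p = 0.00254).

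Most of the remaining Kcn genes were lower in KO at d0 or d4. Kcnip3, the Ca2+-binding subunit of Kv4 channels also known as DREAM or calsenilin, was at 8.11, 9.83 and 10.1 TPM in Ctrl against 3.46, 3.87 and 4.5 TPM in KO at d0 (-1.06 ± 0.12, adjusted p = 7.03e-06), and both genotypes had means of 14.4 TPM at d6. Kcnj4, an inward rectifier, was at 7.28, 7.45 and 8.55 TPM in Ctrl against 2.44, 2.78 and 4.85 TPM in KO at d0 (-1.04 ± 0.21, adjusted p = 0.000846). Kcnj12, another inward rectifier, was lower in KO at d4, with 7.26, 7.76 and 7.95 TPM in Ctrl against 1.74, 3.41 and 3.71 TPM in KO (-1.17 ± 0.22, adjusted p = 0.000267). Its fall from d0 to d6 in KO (-0.80, adjusted p = 0.00308) was lost without replicate 1 of KO at either d0 or d6 (adjusted p of up to 0.0215). Kcnn4, the intermediate-conductance Ca2+-activated channel, was at 1.56, 1.76 and 1.82 TPM in Ctrl against 0.439, 0.519 and 0.819 in KO at d0. Kcnrg, a regulator of K+ channels, was at 9.16 ± 2.14 and 6.29 ± 1.65 TPM in Ctrl and KO at d0 and at 3.11 ± 1.38 and 2.24 ± 1.25 TPM at d6. Its falls rested on 2 to 9 reads per library in KO at d6, and the call in KO (adjusted p = 0.00902) was lost without any 1 of 12 libraries and with the replicate block, up to an adjusted p of 0.0561.

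Both kainate receptor subunits differed. Grik5 (GluK5), which assembles with other subunits, was at 114, 115 and 116 TPM in Ctrl against 50.8, 54.3 and 68.1 TPM in KO at d6, without overlap. Grik5 was lower in KO by a log2 difference of -0.995 ± 0.21 (adjusted p = 0.000519), and rose by 3.43 in Ctrl and by 3.11 in KO from d0 to d6. At d4 the call (-0.78, adjusted p = 0.00422) was lost without Ctrl d4 replicate 2 or 3 or KO d4 replicate 1, and after both rescalings, with adjusted p of up to 0.0279. Grik3 (GluK3) went from 16.3, 18.4 and 18.6 TPM at d0 to 4.59, 6.66 and 8.09 TPM at d6 in Ctrl, a fall of 1.36 on the log2 scale (adjusted p = 1.84e-06). In KO it was at 11.7, 12.1 and 12.2 TPM at d0 and at 10.8, 11 and 12.7 TPM at d6 (-0.06, adjusted p = 0.754). At d6 Grik3 was thus higher in KO (0.77 ± 0.17, adjusted p = 0.000992), and this call was lost when the 2 d6 groups were fitted alone (adjusted p = 0.0121).

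All 6 synaptotagmins rose from d0 to d4 in both genotypes, where 45.1% of all genes rose in Ctrl and 35.8% in KO. Between the genotypes Syt7, Syt9 and Syt13 were lower and Syt5 higher in KO at d4, and Syt7 was lower and Syt5, Syt9 and Syt13 higher at d6. Syt13 (ENSMUSG00000027220; chromosome 2, 92915098 to 92956058), an atypical family member that lacks the residues for Ca2+ binding, went in Ctrl from 0.318, 0.589 and 0.756 TPM at d0 to 34.1, 39.5 and 41.7 at d4 and back to 13.4, 15.1 and 15.6 at d6. In KO it went from 0.0633, 0.187 and 0.396 TPM to 13.2, 14.3 and 15.5 and on to 44.5, 52.6 and 54.3 TPM. Ctrl was thus 2.68-fold KO at d4 (-1.36 ± 0.14, adjusted p = 6.33e-07) and KO was 3.43-fold Ctrl at d6 (1.71 ± 0.14, adjusted p = 2.22e-08), with no overlap on either day. Syt9, a Ca2+ sensor of fast release and the family's most abundant gene at a mean of 20.4 TPM, followed the same order, with 30, 30.4 and 32.7 TPM in Ctrl against 22.9, 23.4 and 23.4 in KO at d4, and 13, 14.5 and 15.5 in Ctrl against 19.8, 21.7 and 22.9 in KO at d6 (0.55 ± 0.08, adjusted p = 2.4e-05). Its d4 difference (-0.40, adjusted p = 0.000625) was lost after both rescalings, up to an adjusted p of 0.0909.

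Syt7, a slow, high-affinity Ca2+ sensor, was lower in KO on all 3 days, with the d0 call lost when the 2 d0 groups were fitted alone (adjusted p = 0.0197). At d6 it was at 24.4, 25.6 and 26.1 TPM in Ctrl against 6.97, 7.91 and 8.3 TPM in KO, so that Ctrl was 3.28-fold KO (-1.60 ± 0.12, adjusted p = 1.08e-08). It rose by 1.15 in Ctrl from d0 to d6, and in KO the change of 0.15 was not called (adjusted p = 0.273). The lincRNA Gm26859 overlaps 384 bases of its exons on the other strand. Syt5, a sensor of dense-core vesicles, was at 3.31, 4.67 and 5.15 TPM in Ctrl against 10, 10.6 and 13.2 TPM in KO at d6 (1.20 ± 0.22, adjusted p = 0.000149), from 20 to 30 reads per Ctrl library. Syt11 and Syt17 were called on no day between the genotypes.

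The plasma membrane syntaxins differed among themselves. Stx3 (ENSMUSG00000041488; chromosome 19, 11775118 to 11819403), the syntaxin of apical membranes and ribbon synapses, was at 52.3, 59.6 and 65.2 TPM in Ctrl against 47.9, 48.2 and 53.2 TPM in KO at d0. At d4 it was at 51, 54.3 and 56.6 TPM in Ctrl against 125, 128 and 137 in KO, and at d6 at 43.2, 45.6 and 59.4 TPM in Ctrl against 162, 165 and 183 in KO. The genotypes overlapped at d0 and stood apart at d4 and d6. KO was 2.41-fold Ctrl at d4 (1.25 ± 0.10, adjusted p = 6.81e-08) and 3.44-fold at d6 (1.77 ± 0.10, adjusted p = 5e-10). From d0 to d6 Stx3 rose in KO by 1.75 (adjusted p = 1.89e-10), and in Ctrl the change was -0.26 (adjusted p = 0.0298).

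Stx1a, a syntaxin of neuronal transmitter release, was lower in KO at d4 and d6. At d6 it was at 15.2, 15.7 and 15.8 TPM in Ctrl against 9.16, 11.1 and 11.5 TPM in KO (-0.52 ± 0.14, adjusted p = 0.00494). The d6 call was lost after both rescalings (adjusted p of up to 0.124) and without any 1 of the Ctrl d6 libraries or without KO d6 replicate 3 (up to 0.0276). Stx2, known from epithelia and secretion, was lower in KO on each day, with 34.4, 34.5 and 34.7 TPM in Ctrl against 16.1, 16.6 and 20.5 TPM in KO at d6 (-0.93 ± 0.13, adjusted p = 9.76e-06). Its rise from d0 to d6 was 1.99 in Ctrl against 2.04 in KO, and the difference of these changes was 0.05 (adjusted p = 0.838). Stx4a was called on no day, with log2 fold changes of 0.12, -0.32 and 0.24.

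**Figure D4:**
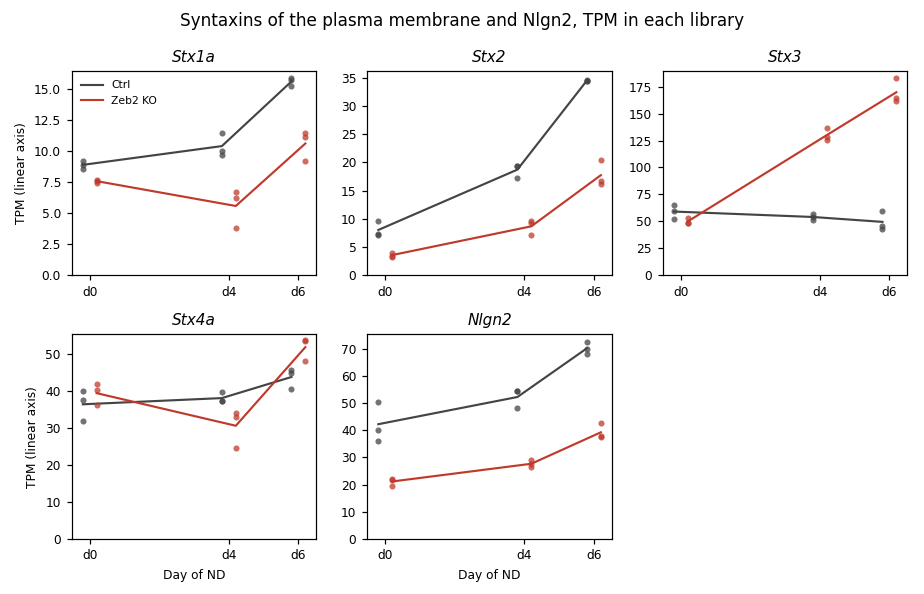
TPM (linear y axes from 0) of 4 plasma membrane syntaxins and Nlgn2 at d0, d4 and d6 in each Ctrl (grey) and Zeb2 KO (red) library, with lines through the means of 3 libraries. Stx3 reaches 162 to 183 TPM in KO at d6 against 43.2 to 59.4 in Ctrl, and Stx1a, Stx2 and Nlgn2 lie below Ctrl at d4 and d6.

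Of the 5 syntaxins of internal membranes, 3 were lower in KO at d4 and 3 at d6, where 32.7% and 34.3% of all genes were lower, and none was higher. Stx7, a late endosomal SNARE and the most abundant syntaxin at a mean of 103 TPM, was at 116, 121 and 129 TPM in Ctrl against 69.7, 73.2 and 84.8 TPM in KO at d4 (-0.68 ± 0.09, adjusted p = 1.5e-05). At d6 it was at 144 to 150 TPM in Ctrl against 163 to 176 in KO (0.21, adjusted p = 0.0564). Stx6, of the trans-Golgi network, was at 16, 16.4 and 19.3 TPM in Ctrl against 10.2, 11.7 and 12 in KO at d6 (-0.57 ± 0.11, adjusted p = 0.00022), a call lost after quantile normalization (adjusted p = 0.0384). Stx17, which acts in autophagosome fusion, and Stx12, of recycling endosomes, were lower in KO at d4 and d6, with log2 fold changes at d6 of -0.72 and -0.26. The calls of Stx12 were lost after median-ratio rescaling and with voom (adjusted p of up to 0.0228 at d4 and 0.103 at d6), and the d4 call of Stx17 after both rescalings and without Ctrl d4 replicate 2 (up to 0.054). Stx16 was called on no day.

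Both synaptic adhesion genes were lower in KO at d6. Nlgn2, the neuroligin of inhibitory synapses, was at 36.2, 40.1 and 50.5 TPM in Ctrl against 19.3, 21.8 and 22.2 TPM in KO at d0, and at 68.2, 69.9 and 72.7 TPM in Ctrl against 37.5, 37.7 and 42.5 in KO at d6. Ctrl was 2.00-fold KO at d0 and 1.79-fold at d6, with log2 fold changes of -0.96, -0.89 and -0.83 on the 3 days (SE 0.10 each, adjusted p of at most 2.78e-06). Its rise from d0 to d6 was 0.73 in Ctrl against 0.86 in KO, and the difference of these changes was 0.13 ± 0.14 (adjusted p = 0.457). Nrxn2, a neurexin, rose from 0.982 ± 0.0735 to 6.29 ± 0.653 TPM in Ctrl and from 0.548 ± 0.00545 to 3.70 ± 0.378 TPM in KO. It was lower in KO at d6 (-0.63 ± 0.13, adjusted p = 0.000461), a call lost after quantile normalization (adjusted p = 0.129), and at d0 and d4 it was not called. Nrxn2 entered the table through Ctrl d6 alone, so that its difference at d6 is partly built in. The genes Gm14964 and Slc22a12 overlap 889 bases of its exons on the other strand.

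Genes of the same functions with other names gave a wider view. Of 105 listed genes for other channels, pumps, receptors, scaffolds and release proteins, 48 were in the table, and at d6 25 were lower in KO and 4 higher, where 34.3% and 17.9% of all genes were called, with a median of -0.35 on the log2 scale against -0.14 over all genes. Of 5 nicotinic acetylcholine receptor subunits in the table, 4 were lower in KO, and Chrna7 was not called (-0.52, adjusted p = 0.0627). In KO the means of Chrna3, Chrna4 and Chrna5 were at most 0.237, 2.67 and 2.67 TPM over the days. They thus entered the table through Ctrl libraries alone, and their differences at d6 are partly built in. How many others of the 48 genes entered through a single genotype was not counted, so that the counts of the list carry the same limit. Chrna3 was at 37.3 TPM in Ctrl against 0.223 in KO (means, n = 3), a log2 difference of -4.97 (adjusted p = 1.14e-13), and Chrnb4 at 39.1 and 7.1 TPM (-2.31, adjusted p = 1.93e-07). Cplx2, a complexin of the release machinery, was at 28.7 and 6.3 TPM (-2.03, adjusted p = 3.46e-07), and Gphn, which encodes gephyrin, the scaffold of inhibitory synapses, at 31.7 and 12.7 TPM (-1.26, adjusted p = 1.01e-07). The higher genes included Atp1b1 (1.42), a subunit of the Na+/K+ pump, Syngr1 (0.80) and Camk2b (0.74).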

How the data were processed

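RNA of Ctrl and Zeb2 KO cells at d0, d4 and d6 of ND was sequenced in 18 libraries. The authors mapped single reads to GRCm38 (TopHat2 2.0.13), obtained gene counts (featureCounts 1.4.6), converted the counts to TPM and deposited the TPM of genes that passed filters on biotype, level and variability. All 10965 genes have at least 5 TPM in at least 3 libraries. The authors also deposited 3 score columns per gene (variance measures), which were not used. Of 11046 entries, 81 with a repeated identifier were left out. Whether strand was used in counting, and how shared reads were assigned, is not given in the sources used here.

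Reads were recovered from the TPM as whole numbers, after allowing for 1 added read per gene (all 10965 genes, within a tolerance of 0.001), and served for depth and for voom. Groups were compared in R 4.3.3 with limma 3.58.1 (lmFit, then contrasts.fit, then eBayes with trend). The model gave each of the 6 groups its own mean of log2(TPM + 1), and p-values were adjusted by Benjamini-Hochberg across all genes, with calls below 0.01. The course was tested with a moderated F test of both differences in change since d0. These p-values measure the spread between libraries labelled as biological replicates. The steps were tested on simulated data. Positions came from GENCODE M21 and promoters from RefSeq (GRCm38.p6). Figures used Python 3.11.15 and matplotlib 3.10.9. The text names 29 of the 46 genes by rule: the 5 called genes of largest change in each direction of each comparison, the most abundant gene of each family, the adhesion genes, and the 2 genes of smallest p in the course test of each role. Results of some genes are not reported here, and counts over the 46 genes include them. Genes outside the rule are named where a count is spelled out, and Cacng8, Cacna1h, Cacnb3, Stx1a, Stx2, Stx4a, Stx12 and Stx17 were given values after these were seen. The members, the lists and the rule were chosen with earlier results of these data known. Alternatives were pseudocounts of 0.1 and 5, a mean TPM of at least 10, 2 rescalings, fits to the compared groups, eBayes without trend, a replicate block, voom, removal of the medians of chromosomes 6, 8 and 12, a fold change threshold and leaving out each library.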

Additional observations from a re-analysis of the deposited data

Results flagged for a closer look

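Genes listed here changed between d0 and d6 by different amounts in Zeb2 KO and Ctrl, by limma's test of the difference itself at a Benjamini-Hochberg adjusted p below 0.01. Values are the change in KO minus the change in Ctrl on the log2(TPM + 1) scale. In the following the change was more upward in KO. Kcng3 (3.19), Cacng7 (2.28), Syt13 (2.06), Stx3 (2.01), Cacng6 (1.83) and Cacng8 (1.62) had the largest differences. They were followed by Kcnk1 (1.46), Kcnn4 (1.33), Grik3 (1.30), Kcnip3 (1.07), Syt5 (1.05), Cacna1b (1.05), Kcnh3 (0.98), Kcnk6 (0.96) and Syt9 (0.66). Genes in which it was more downward included Cacna1g (-2.12), Kcnh2 (-1.24) and Syt7 (-1.0). Kcng3 and Cacna1b entered the table through KO d6 alone, Kcnn4 through KO libraries of d4 and d6 alone, and Cacna1g through Ctrl d6 alone. The differences of these genes are therefore partly built in. Kcnn4 also had only 2 to 6 reads per KO library at d0. With 3 libraries in each group, single libraries were not examined as outliers.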

How the results depend on the processing

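The counts of called genes were 0 higher and 12 lower at d0, 6 and 19 at d4, and 12 and 15 at d6, with 35 rising and 5 falling from d0 to d6 in Ctrl, 36 and 5 in KO, and 22 with a different course. Requiring also an absolute log2 fold change above 1 left 5 lower at d0, 3 higher and 6 lower at d4, 6 higher and 5 lower at d6, 23 rising in Ctrl and 3 falling in KO. Restricting the test to a mean TPM of at least 10, which leaves 20 of the 46 genes, gave 6 lower at d0, 2 higher and 12 lower at d4, 7 higher and 7 lower at d6, 15 rising and 2 falling in Ctrl, 16 rising and 1 falling in KO, and 12 with a different course. Quantile normalization gave 12 higher and 12 lower at d4 and 23 rising and 10 falling in Ctrl, voom gave 1 higher at d0, and leaving out 1 library gave 3 to 5 falling in KO. Shares of all genes called under the alternatives, the replicate block included, were not counted, so that these counts have no comparison.

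Of 132 called values of the 42 genes reported singly, 40 lost the call with unchanged sign under at least 1 alternative. This was most often under quantile normalization, where 28 did, and the cause was not tested. A further 6 alternatives reversed the sign and are not counted in these losses. In Ctrl from d0 to d6, quantile normalization reversed Cacnb1 (-0.038), Kcnip3 (-0.16), Kcnj4 (-0.054), Kcnn4 (-0.47) and Syt5 (-0.25), and median-ratio rescaling reversed Stx12 (-0.085). The rise of Kcnn4 in Ctrl was lost without any 1 of 12 libraries (adjusted p of up to 0.0311), that of Kcnj4 without 4 (up to 0.0211), and the fall of Kcnrg in Ctrl without Ctrl d0 replicate 2 or Ctrl d6 replicate 2 (up to 0.0301).

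With the replicate block the counts were 0 and 13 at d0, 6 and 20 at d4, 12 and 15 at d6, 35 and 5 from d0 to d6 in Ctrl, 37 and 4 in KO, and 22 for the course. The deviations of same-numbered libraries correlated between -0.093 and 0.336, so that the numbers were not taken to pair the samples. Among the KO libraries of the day each Ctrl library correlated best with that of its own number, except replicate 3 at d0 and at d6. Genes with few reads, such as Kcng3 in KO at d0, limit what could be detected there.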
